A study of Sus scrofa with 20 samples.

Results

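The matrix proteases and their inhibitors of the pig were taken as every row of the deposited expression table whose gene name is MMP, TIMP or ADAMTS followed by a number, or ADAMTSL followed by a single digit. The rule found 46 genes among 25764 rows: 18 matrix metalloproteinases (MMPs), 4 tissue inhibitors of metalloproteinases (TIMPs), 19 ADAMTS proteases and 5 ADAMTS-like proteins. It used the names only and no measured value. Of these genes, 44 reached 10 normalized counts in 2 or more libraries and were tested, while MMP20 (at most 1.43) and MMP27 (at most 7.14, in S5) were not. MMP1, MMP10, MMP21 and MMP26 were not analysed here, nor was MMP23B, which does not match the naming rule.

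The study sequenced RNA of pig (Sus scrofa) biliary tree stem cells, called pBTSCs, and of liver cells sorted by surface antigens, in 20 libraries. The pBTSCs came from newborn piglets and are labelled as gallbladder tissue, while the paper also names the cystic and common duct. By the study's list of donors they came from 5 different piglets: S2, S7 and S11 carried an H2B-GFP transgene, inserted at the ACTB locus, and S15 and S20 were wild type. The 5 liver groups are labelled only by the antigen used in the sort: CD45-/EpCAM+ (epithelial adhesion molecule positive, leukocyte antigen negative), CD45-/EpCAM-, CD45+ (leukocytes), CD31+ (endothelial antigen PECAM1) and CD146+ (endothelial and mural antigen MCAM). The paper defines biliary tree stem cells as CD45- and EpCAM+ too, and describes selected cells that formed organoids with early mesenchymal cells. The labels name no treatment, and age, genotype and donor of the liver libraries are not given in the labels. There were 5 pBTSC libraries (S2, S7, S11, S15, S20), 4 of CD45-/EpCAM+ cells (S4, S9, S13, S19), 2 of CD45-/EpCAM- cells (S5, S14), 5 of CD45+ cells (S3, S8, S12, S18, S23), 2 of CD31+ cells (S16, S21) and 2 of CD146+ cells (S17, S22), and values below follow this order. The labels do not tie the liver libraries to animals, so p-values measure the spread between these libraries, some of which may share a donor.

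MMPs are zinc proteases that cut collagens, basement membrane proteins and other matrix components, and most are secreted or membrane-bound proenzymes that other proteases activate. TIMPs bind their active sites and block them, and TIMP3 also blocks several ADAMTS proteases. ADAMTS proteases bind matrix through thrombospondin repeats and cut proteoglycans such as aggrecan and versican, procollagens or von Willebrand factor, whereas ADAMTS-like proteins have the repeats but no protease domain. In the liver and bile ducts these genes are best known from stellate cells and portal fibroblasts, which build and remodel the scar matrix, and from MMP7, a protease of injured bile duct epithelium.

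Several measurements of the libraries bear on all that follows. Depth, estimated from the value that 1 read has in each library, was 1570000 reads in S15 (pBTSC), 801000 in S13 (CD45-/EpCAM+) and 455000 in S22 (CD146+), and 21200000 to 77900000 in the other 17. No gene of a sorted antigen set its labelled liver group apart from all the others. PTPRC, which encodes CD45, was at 424 to 2687 normalized counts in CD45+, 450.1 to 3027 in CD45-/EpCAM+ and 1317 to 2850 in CD45-/EpCAM- libraries. Its median of 1227 in CD45+ was under those of CD45-/EpCAM+ (1912), CD45-/EpCAM- (2084), CD31+ (1500) and CD146+ libraries (1725). EPCAM was at 1205 to 1779 in CD45-/EpCAM+, above 491 to 1090 in CD45-/EpCAM-, but at 1175 to 2232 in CD45+. In pBTSCs, EPCAM was at 884 to 2075, overlapping all 3 of these ranges. PTPRC was at 534 to 2139.5 in pBTSCs, within its range in CD45+ libraries. PECAM1 was at 20102 to 25291 in CD31+ and at 12940 to 26681.5 in CD45+ libraries. MCAM was at 4615 to 5226 in CD146+, 3672 to 4751 in CD31+ and 2176 to 4615 in CD45-/EpCAM+ libraries. Summed hepatocyte markers were at 858196 to 2384370 in all 15 liver libraries and at 26105 to 66811 in pBTSCs. Of the 13 liver libraries above 2000000 reads, 2 had their most similar liver library in their own group, but 11 had it within 3 of their own label number (S16 and S17, for example), by the median absolute log2 difference over 15576 genes. Across S16 to S19, which carry 4 different sort labels, 41 of the 44 members ranged by under 1 on the log2 scale. Labels of the liver groups were kept as given. In the study's quality list, RNA integrity was lower in the transgenic S2, S7 and S11 than in the wild-type S20. That list holds no integrity value for S15 or for any liver library. The part of RNA integrity in the differences was not tested.

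Far more of the tested members were higher than lower in pBTSCs when compared with CD45-/EpCAM+ liver cells. By limma (Benjamini-Hochberg adjusted p under 0.05 and absolute log2 fold change above 1, over 15576 genes), 23 of 44 members were called higher, where 14.8% of all genes were, and 3 were called lower, where 10.3% were. The median log2 fold change over the members was 1.46, and over all genes it was 0.08. Against CD45-/EpCAM- cells 29 members were higher (20% of all genes) and 3 lower (16.6%), with a median of 2.19 beside 0.04. Against CD45+ cells the counts were 20 higher (11%) and 3 lower (9.54%), with a median of 1.19 beside 0.07. In these bulk libraries, fewer cells of a type and less RNA per cell cannot be told apart.

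Fewer members were called against the endothelial sorts, in the same directions. Against CD31+ cells 13 members were higher (6.73% of all genes) and 3 lower (7.62%), with a median log2 fold change of 0.96 beside 0.09, but the 16 calls became 8 without S16, where 10.2% of all genes were called, and 6 without S21, where 6.54% were. Against CD146+ cells 14 were higher (14.5%) and 3 lower (7.75%), with a median of 1.09 beside 0.18, and the 17 calls became 8 without the shallow S22. The share of members called higher against CD146+ cells was thus 14 of 44 with S22 and 5 of 44 without it, when 3.04% of all genes were. The calls of MMP12, MMP13, MMP25, ADAMTS14, ADAMTS19 and ADAMTSL3 against CD146+ cells involve a value of 0 in S22, where 3 reads stand for 156 normalized counts, and of these MMP12 and ADAMTSL3 were still called without S22.

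Members called in every one of these 5 comparisons form 2 sets. The 11 that were higher were MMP2, MMP7, MMP12, MMP13, MMP28, TIMP2, ADAMTS2, ADAMTS5, ADAMTS16, ADAMTS17 and ADAMTS19, and the 3 that were lower were MMP19, ADAMTS13 and ADAMTSL2. Of all genes, 4.85% were higher in all 5 and 5.85% were lower in all 5. A further 21 were higher in 1 to 4 comparisons, 9 were called in none, and no member was higher in one comparison and lower in another. The 5 comparisons share the pBTSC libraries. Without S21 the members still called higher than CD31+ cells were MMP2, MMP12 and TIMP2, and without S22 those called higher than CD146+ cells were MMP2, MMP9, MMP12, TIMP2 and ADAMTSL3. MMP19, ADAMTS13 and ADAMTSL2 were called lower in both cases. Against CD45-/EpCAM- cells, though, the 3 lower calls became 2 without S5 (8.80% of all genes) and 1 without S14 (17.8%). Of the 14 members called in all 5 comparisons, MMP2, TIMP2 and ADAMTSL2 kept all 5 calls whichever library was left out. MMP12, MMP19 and ADAMTS13 lost only the call against CD45-/EpCAM- cells, MMP12 without S14 (limma adjusted p = 0.0875). Each of the other 8 lost the call against CD31+ cells without S21 and that against CD146+ cells without S22.

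Scaling changed how many members were called. When every library was rescaled to the same total, the median log2 fold change of all genes moved to 0.39, 0.51, 0.32, 0.38 and 0.46 against CD45-/EpCAM+, CD45-/EpCAM-, CD45+, CD31+ and CD146+ cells, so members are to be read against these shifts. In this scaling the members called higher and lower were 27 and 3, 31 and 2, 25 and 3, 18 and 3, and 22 and 3, in the same order, and MMP19 was no longer called against CD45-/EpCAM- cells. The shares of all genes called higher and lower in this scaling are not given beside these counts. Their change therefore cannot be read as particular to the members. Among all genes called against CD45-/EpCAM+ cells, 2302 were higher and 1603 lower as deposited, and 3308 and 1237 after rescaling. The share of higher genes among all genes called went from 54.7 to 75.5% against CD45-/EpCAM-, from 53.6 to 67.1% against CD45+, from 46.9 to 61.9% against CD31+ and from 65.1 to 76.2% against CD146+ cells, and quantile normalization took the last to 51.7%.

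**Figure D1:**
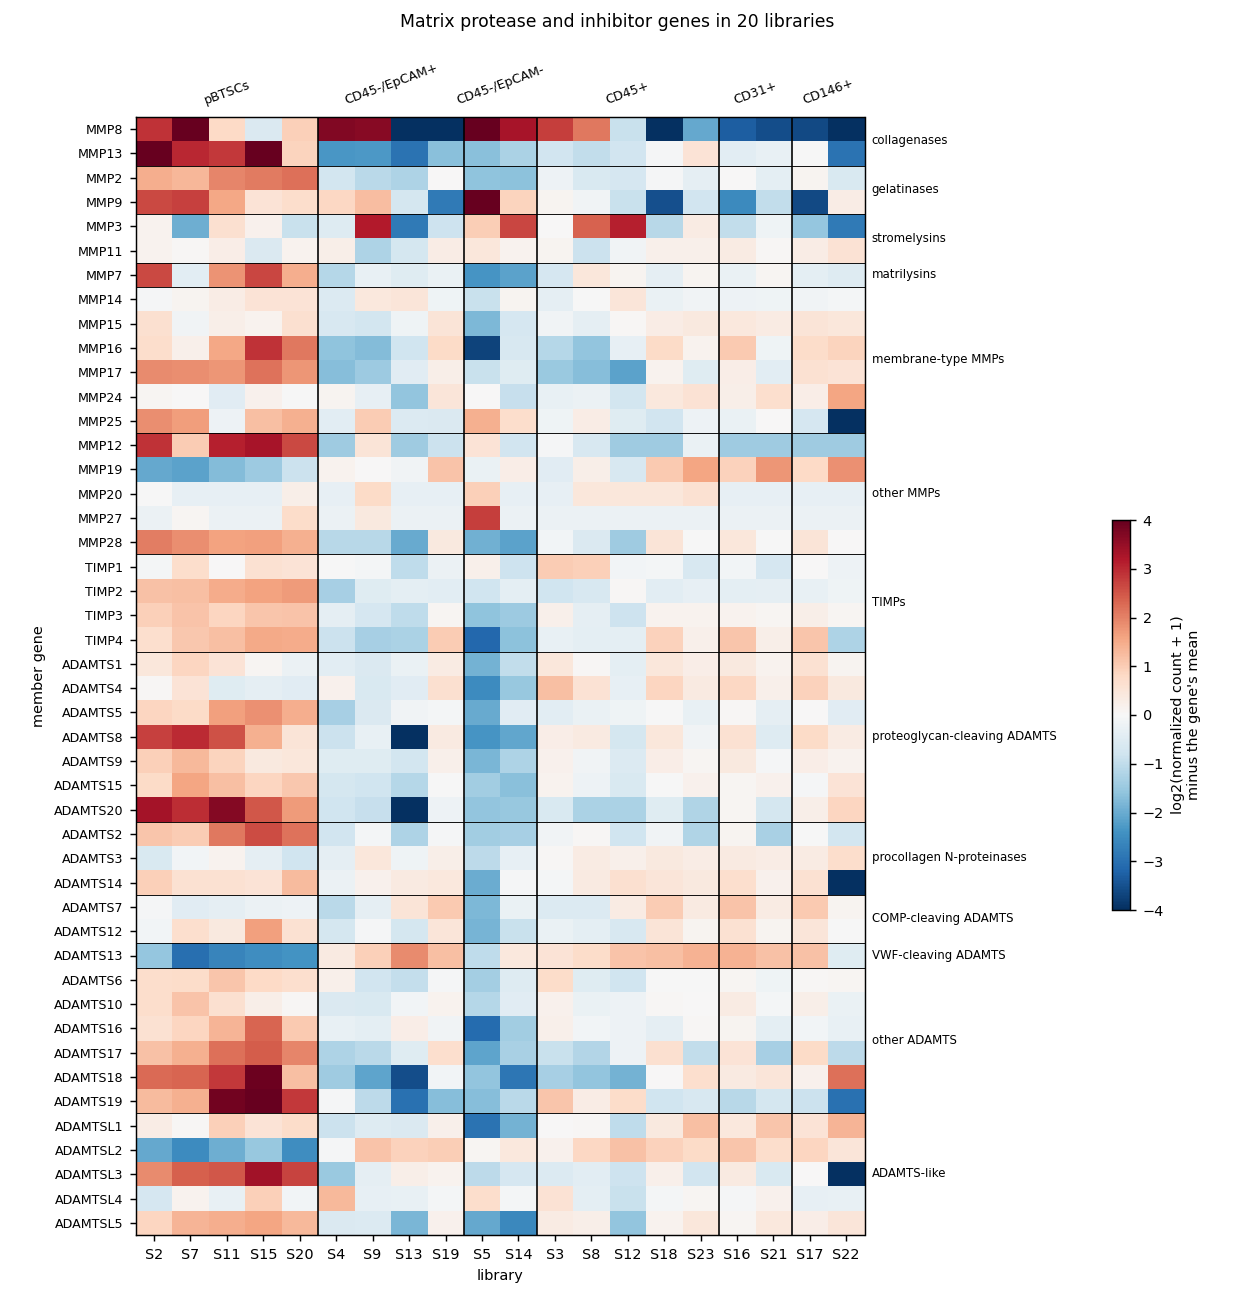
Heat map of the members (rows, by role) in the 20 libraries (columns, by group); colour is log2(normalized count + 1) minus the gene's mean over the 20 libraries, limited to 4 in either direction. The 5 pBTSC columns are above the mean for most rows and below it for MMP19, ADAMTS13 and ADAMTSL2.

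Some levels did not overlap at all between pBTSCs and liver. All 5 pBTSC libraries were above all 15 liver libraries for 17 of the 44 members (11.9% of all genes): MMP2, MMP12, MMP13, MMP17, MMP28, TIMP2, TIMP3, ADAMTS2, ADAMTS5, ADAMTS9, ADAMTS15, ADAMTS16, ADAMTS17, ADAMTS19, ADAMTS20, ADAMTSL3 and ADAMTSL5. All 5 were below all 15 for MMP19, ADAMTS13 and ADAMTSL2, which are 3 of 44 (9.21% of all genes). Without the 3 shallow libraries 18 members lay above (16.22% of all genes), with ADAMTS18 added, and 3 below (12.45% of all genes).

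Markers of other cells also differed between the groups. All 7 markers of fibroblasts and stellate cells had a row, and their sum was at 353206 to 1637300 normalized counts in pBTSCs and at 29128 to 152715 in liver libraries. COL1A1, COL1A2, COL3A1, DCN and LUM lay above their liver ranges, but PDGFRA and PDGFRB overlapped. PDGFRA was at 496 to 1658 in pBTSCs and 95.8 to 717 in liver, and PDGFRB at 5785 to 12097 and 1815 to 7818. Of 5 smooth muscle markers 4 had a row, with sums of 74493 to 171398 in pBTSCs and 10383 to 90931 in liver. Summed endothelial markers were at 51552 to 62035 in pBTSCs and within the liver range of 18786 to 120223, but single markers differed in direction. PECAM1 was at 28047.5 to 36576 in pBTSCs and at 4803 to 28778 in liver. STAB2 was at 40.6 to 987 and LYVE1 at 625 to 1482 in pBTSCs, and at 5300 to 60522 and 1461 to 5732 in liver. CDH5 and KDR lay within their liver ranges. Summed macrophage markers were at 3479 to 8308 in pBTSCs and at 16114 to 77976 in liver, though PTPRC and CSF1R overlapped. The part of all these markers in the differences of the proteases was not tested.

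**Figure D2:**
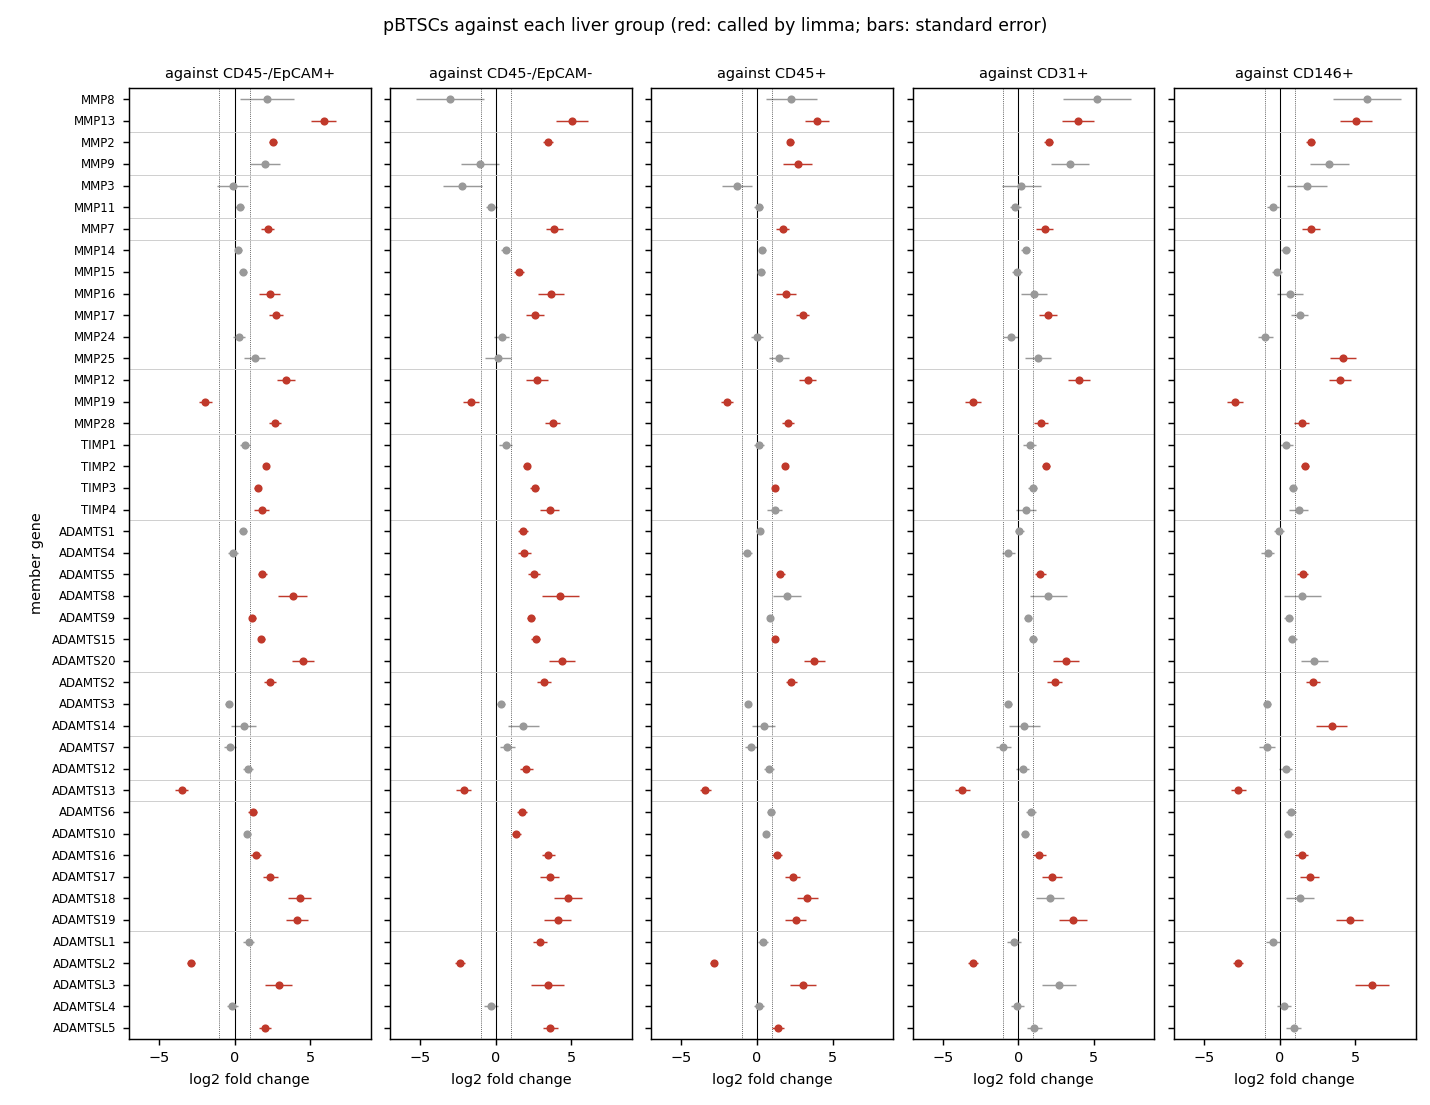
Log2 fold change of each tested member (points, with standard error as bars) in pBTSCs against each of the 5 liver groups by limma; red points passed an adjusted p of 0.05 and a log2 fold change beyond 1 (dotted lines). Points lie mainly to the right of 0, with MMP19, ADAMTS13 and ADAMTSL2 to the left in all 5 panels.

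Among the inhibitors, TIMP2 was the one called in all 5 comparisons. TIMP2 was at 8459, 8674, 10390.3, 11367 and 12153 normalized counts in pBTSCs, 1492, 2663, 2879 and 2759 in CD45-/EpCAM+, 2128 and 2857 in CD45-/EpCAM-, 2149, 2371, 3882, 2813 and 2985 in CD45+, 2851 and 2892 in CD31+ and 3048 and 3287 in CD146+ libraries. TIMP2 inhibits MMP2 and also takes part in its activation at the cell surface with MMP14. The pBTSC mean was 10209 ± 1626 (SD, n = 5) and that of CD45-/EpCAM+ cells 2448 ± 643 (SD, n = 4), and the lowest pBTSC library was above the highest liver library. This was a log2 fold change of 2.09 ± 0.20 (SE) against CD45-/EpCAM+ cells (limma adjusted p = 5e-07) and from 1.67 to 2.03 against the other liver groups. Within label numbers up to 14 the difference from CD45-/EpCAM+ cells was 2.02 and within numbers from 15 it was 2.09. The one CD45-/EpCAM+ library numbered from 15 is S19, so each difference from that group within these numbers, here and below, rests on a single liver library and has no error. For pBTSCs the same split also separates the transgenic libraries (S2, S7, S11) from the wild-type ones (S15, S20), so number and genotype cannot be told apart.

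TIMP3, the inhibitor that stays bound to the matrix, was also above every liver library in every pBTSC library. TIMP3 was at 30471, 34618, 28290.1, 33909.9 and 34159 normalized counts in pBTSCs, 12287, 9809, 7763 and 16589.6 in CD45-/EpCAM+, 5162 and 5672 in CD45-/EpCAM-, 18083, 12099.7, 8779.5, 17189 and 17162 in CD45+, 17158 and 16437 in CD31+ and 18325 and 16541 in CD146+ libraries. The pBTSC values lay within a narrow range, while the liver values formed a lower part up to S14 and a higher part from S16 on, apart from S3. TIMP3 was higher by 1.53 ± 0.23 on the log2 scale than in CD45-/EpCAM+ cells (limma adjusted p = 5.8e-05) and by 2.57 ± 0.29 than in CD45-/EpCAM- cells (limma adjusted p = 2.9e-06). Against CD31+ and CD146+ cells its log2 differences of 0.94 and 0.89 did not reach the fold threshold.

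TIMP4, an inhibitor best known from heart and vessels, had a weaker separation. TIMP4 was at 391.8, 525, 566, 703 and 689 normalized counts in pBTSCs, 136, 98.6, 103 and 498 in CD45-/EpCAM+, 27.2 and 79.1 in CD45-/EpCAM-, 199, 188, 189, 471 and 287 in CD45+, 532 and 288 in CD31+ and 531 and 104 in CD146+ libraries. The lowest pBTSC value was under 4 liver values of S16 to S19. TIMP4 rose by 1.79 ± 0.52 against CD45-/EpCAM+ cells (limma adjusted p = 0.011) and by 3.57 ± 0.64 against CD45-/EpCAM- cells (limma adjusted p = 0.00026), but within label numbers from 15 the difference from CD45-/EpCAM+ cells was 0.48, beside 2.12 within numbers up to 14. TIMP4 lies inside SYN2 in the RefSeq annotation of Sscrofa11.1, and SYN2 was at 12.6 to 85.0 normalized counts in pBTSCs and at most 2.001 in liver, so reads of the overlapping pair are uncertain where counting did not use strand. The same caution holds for TIMP1 with SYN1, TIMP2 with CEP295NL and TIMP3 with SYN3. It also holds for MMP13, MMP16, MMP28, ADAMTS1, ADAMTS2, ADAMTS9, ADAMTS10, ADAMTS14, ADAMTS18, ADAMTS19 and ADAMTSL1, each of which overlaps a locus without a gene name.

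TIMP1, the inhibitor that rises in liver fibrosis, was called in no comparison of the values as deposited. TIMP1 was at 2423, 4219.7, 2585, 3923 and 3741 normalized counts in pBTSCs, 2560.4, 2445, 1260.0 and 2170.0 in CD45-/EpCAM+, 2993 and 1460.3 in CD45-/EpCAM-, 5148, 4945, 2379.5, 2425 and 1652 in CD45+, 2399 and 1621 in CD31+ and 2615 and 2241 in CD146+ libraries. The pBTSC values lay inside the range of the liver values, where S3 and S8 were highest and S13 lowest. Its log2 difference from CD45-/EpCAM+ cells was 0.70 ± 0.33 (limma adjusted p = 0.107), though with every library rescaled to the same total it passed both thresholds against CD45-/EpCAM+ (limma adjusted p = 0.0121) and CD45-/EpCAM- cells (1.13, limma adjusted p = 0.0182). Thus 3 of 4 TIMPs were called higher against CD45-/EpCAM+ cells (14.8% of all genes) and against CD45-/EpCAM- cells (20%). Against CD31+ cells (6.73%) and against CD146+ cells (14.5%) it was 1 of 4.

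**Figure D3:**
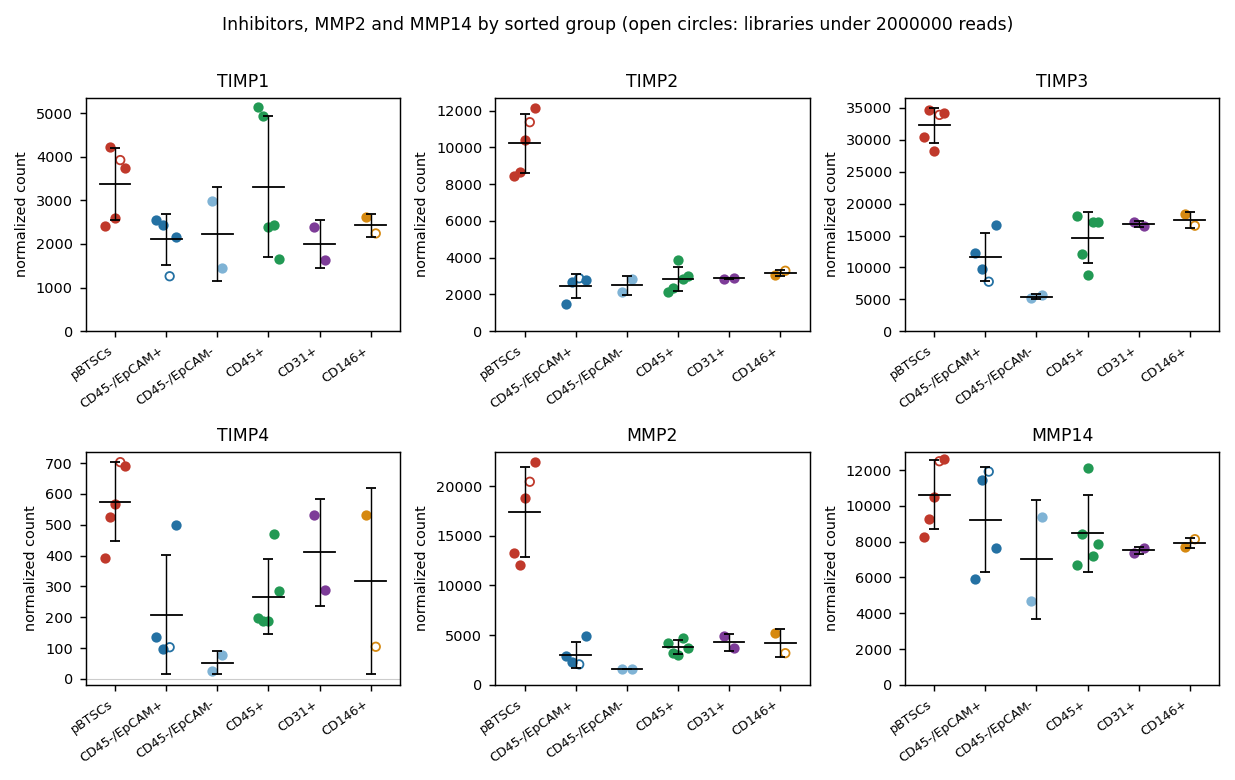
Normalized counts of TIMP1, TIMP2, TIMP3, TIMP4, MMP2 and MMP14 in each library (points; open circles are the 3 libraries under 2000000 reads), with group means (lines) and SD (bars). TIMP2, TIMP3 and MMP2 have all pBTSC points above all liver points, whereas TIMP1 and MMP14 overlap.

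MMP2, the gelatinase that cuts denatured collagen and basement membrane collagen, was higher in pBTSCs by a wide margin. MMP2 was at 13264, 12086, 18777, 20435 and 22432 normalized counts in pBTSCs, 2881, 2299, 2056 and 4924 in CD45-/EpCAM+, 1566 and 1554 in CD45-/EpCAM-, 4198, 3158, 3041, 4722 and 3755 in CD45+, 4876 and 3661 in CD31+ and 5193 and 3183 in CD146+ libraries. The lowest pBTSC library exceeded the highest liver library more than the pBTSC libraries differed among themselves on the log scale. Mean levels were 17399 ± 4522 (SD, n = 5) for pBTSCs and 3040.3 ± 1303 (SD, n = 4) for CD45-/EpCAM+ cells. On the log2 scale it rose by 2.56 ± 0.25 against CD45-/EpCAM+ (limma adjusted p = 5.9e-07), 3.44 ± 0.31 against CD45-/EpCAM- (limma adjusted p = 4.3e-07) and 2.0 to 2.18 against the other groups. The difference from CD45-/EpCAM+ cells was 2.60 within label numbers up to 14 and 2.12 within numbers from 15.

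MMP9, the gelatinase of neutrophils and macrophages, varied widely within several groups. MMP9 was at 297, 313, 139, 68.8 and 76.3 normalized counts in pBTSCs, 82.5, 110.3, 28.2 and 5.67 in CD45-/EpCAM+, 1055 and 86.4 in CD45-/EpCAM-, 49.9, 42.3, 24.5, 3.16 and 26.8 in CD45+, 7.07 and 22.96 in CD31+ and 2.92 and 57.2 in CD146+ libraries. S5 held the highest value of all 20 libraries and S17 and S18 the lowest. In the fit of all 20 libraries with no covariate, MMP9 was called higher in pBTSCs only against CD45+ cells, by 2.68 ± 0.96 (limma adjusted p = 0.0394), while against CD45-/EpCAM- cells the log2 difference was -1.04 ± 1.27 (limma adjusted p = 0.519) and without S5 it was 0.76 (limma adjusted p = 0.762). Summed neutrophil markers (S100A8, S100A9, S100A12, CSF3R and MPO) were at 64170.5 normalized counts in S5 and at 157 to 13322 in the other 19 libraries. Their part in the MMP9 values was not tested.

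MMP8, the neutrophil collagenase, also varied widely within several groups. MMP8 was at 1681 and 199 normalized counts in CD45-/EpCAM- cells, with S5 the highest of all, and at 150.3, 621, 34.5, 12.6 and 38.9 in pBTSCs, with S7 the highest of these. It was at 264, 254 and 0 in S4, S9 and S13 (CD45-/EpCAM+) and at 139.6, 86.8 and 10.1 in S3, S8 and S12 (CD45+). MMP8 was at or under 3.96 in every liver library from S16 on, and in no comparison was it called. Among pBTSCs, S7 also had the highest summed neutrophil markers, 7166 where the group began at 214. S4, S9 and S14 had higher sums than S7, at 10124, 12824 and 13322, but lower MMP8. The part of neutrophils in the MMP8 values was not tested.

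**Figure D4:**
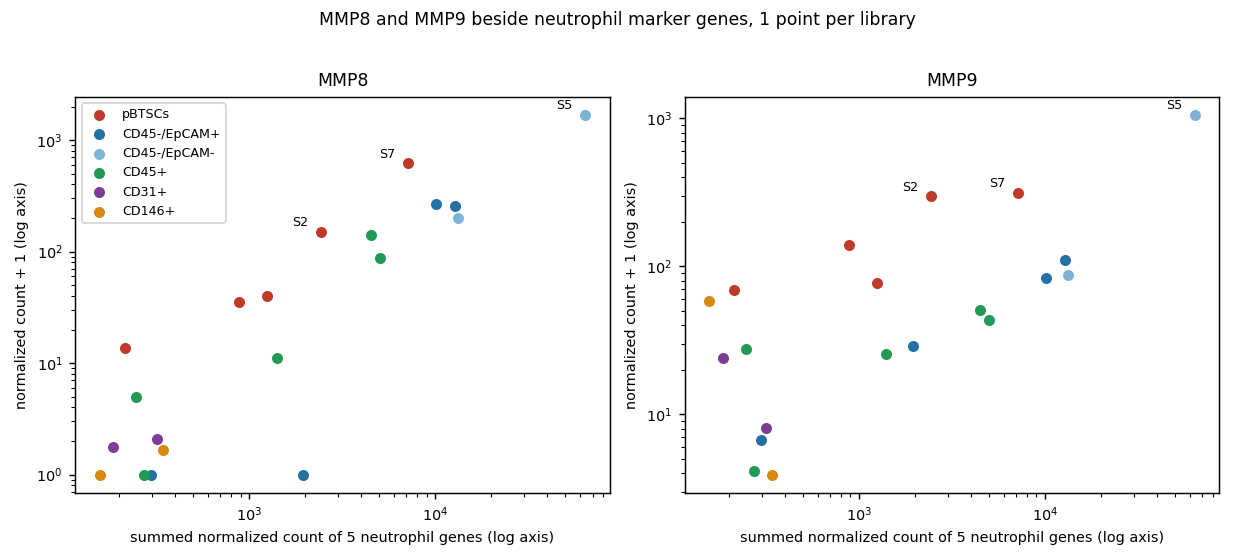
Normalized count + 1 of MMP8 and MMP9 (log axis) against the summed normalized counts of 5 neutrophil genes (log axis), 1 point per library, coloured by group. S5, with 64170.5 on the horizontal axis, is highest for both genes, and S7 is the highest pBTSC library.

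MMP13, the other collagenase with a row, was low in liver and present in every pBTSC library. MMP13 was at 279, 61.5, 54.1, 489.9 and 13.4 normalized counts in pBTSCs, 0.561, 0.564, 0 and 1.41 in CD45-/EpCAM+, 1.43 and 2.23 in CD45-/EpCAM-, 3.61, 2.91, 3.61, 6.48 and 10.4 in CD45+, 4.84 and 5.34 in CD31+ and 6.67 and 0 in CD146+ libraries. Liver values stood at 10.4 or less, and pBTSC values ranged from 13.4 in S20 to 489.9 in the shallow S15. MMP13 rose by 5.89 ± 0.84 against CD45-/EpCAM+ cells (limma adjusted p = 3.2e-05), a group in which all 4 libraries were at or under 3 reads, so the fitted size depends on the count of 1 added before the logarithm. Against the other liver groups it was 3.93 to 5.06. Without the 3 shallow libraries the value against CD146+ cells was 2.99 (limma adjusted p = 0.0963).

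Of its neighbours on chromosome 9, MMP12 and MMP7 were higher in pBTSCs and MMP3 was not called. MMP12 encodes macrophage elastase. MMP12 was at 18.98, 4.48, 22.1, 25.6 and 15.6 normalized counts in pBTSCs, 0, 2.88, 0 and 0.4802 in CD45-/EpCAM+, 2.91 and 0.569 in CD45-/EpCAM-, 1.63, 0.743, 0, 0 and 1.22 in CD45+, 0 and 0 in CD31+ and 0 and 0 in CD146+ libraries. These are low levels: 14 of the 15 liver libraries and the shallow S15 were at or under 3 reads. The 4 deeper pBTSC libraries averaged at least 6.69 times the highest floor of the CD31+ libraries, which were both at 0, and no such bound could be given for CD146+ cells because the floor of S22 was above the pBTSC level. MMP12 rose by 3.39 ± 0.58 against CD45-/EpCAM+ cells (limma adjusted p = 0.00019) and by 3.35 ± 0.55 against CD45+ cells (limma adjusted p = 0.00014). The summed macrophage markers were lower in pBTSCs than in any liver library, as were CD68, CD163 and MARCO, but PTPRC and CSF1R overlapped. PTPRC was at 534 to 2139.5 in pBTSCs and 424 to 3027 in liver, and CSF1R at 1326 to 4043 and 3312 to 13933. The part of macrophages in the MMP12 values was not tested.

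MMP7, or matrilysin, a small protease of duct and gland epithelium, was high but variable in pBTSCs. MMP7 was at 10167, 1224, 5717, 10365 and 4517 normalized counts in pBTSCs, 734, 1338, 1157 and 1351 in CD45-/EpCAM+, 318 and 370.0 in CD45-/EpCAM-, 1032, 2219, 1759.9, 1262 and 1776 in CD45+, 1343 and 1714 in CD31+ and 1249 and 1148 in CD146+ libraries. S7 lay inside the liver range, whereas the other 4 pBTSC libraries were above all 15 liver libraries. MMP7 rose by 2.18 ± 0.45 against CD45-/EpCAM+ cells (limma adjusted p = 0.00107) and by 3.88 ± 0.57 against CD45-/EpCAM- cells (limma adjusted p = 3.8e-05). Its call against CD31+ cells, by 1.74 (limma adjusted p = 0.0421), was lost on leaving out S2, S11, S15, S20, S16 or S21 (limma adjusted p from 0.0549 to 0.247), without the filter on low values (limma adjusted p = 0.0546) and in a fit of the groups compared alone (limma adjusted p = 0.126). Summed epithelial markers were at 7287 to 20033 in pBTSCs and at 5507 to 26536 in liver.

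The stromelysins were called in no comparison of pBTSCs with liver. MMP11, which is made mostly by fibroblasts, was at 540.2 to 957 normalized counts in pBTSCs and 341 to 1199.8 in liver. MMP3, or stromelysin-1, was at 0.846 to 10.1 in pBTSCs, and its 4 highest values were 63.3 in S9, 60.9 in S12, 44.7 in S14 and 35.3 in S8.

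Of the 6 membrane-type MMPs, MMP16 and MMP17 were called higher against CD45-/EpCAM+ and CD45+ cells, and MMP15 joined them against CD45-/EpCAM- cells. MMP14, the membrane-anchored activator of MMP2, was called in none with all 20 libraries. MMP14 was at 8275, 9268, 10484, 12494 and 12592 normalized counts in pBTSCs, 5939, 11443, 11915 and 7650.2 in CD45-/EpCAM+, 4672 and 9361 in CD45-/EpCAM-, 6713, 8419.5, 12132, 7195 and 7870.4 in CD45+, 7379.8 and 7655 in CD31+ and 7719.7 and 8138 in CD146+ libraries. The groups overlapped, with S9, S12 and S13 above 3 of the 5 pBTSC libraries. Its log2 difference from CD45-/EpCAM+ cells was 0.24 ± 0.24 (limma adjusted p = 0.459) and from CD45-/EpCAM- cells 0.66 ± 0.30 (limma adjusted p = 0.0764). Without S14, which leaves S5 alone in that group, the latter was 1.17 and passed the call (limma adjusted p = 0.0142), and with libraries rescaled to the same total it was 1.14 (limma adjusted p = 0.0154).

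MMP17 is anchored by a lipid and has weak activity on most matrix proteins. MMP17 was at 134, 132, 123, 163 and 122 normalized counts in pBTSCs, 10.1, 12.4, 25.7 and 42.3 in CD45-/EpCAM+, 18.6 and 25.1 in CD45-/EpCAM-, 12.03, 10.2, 7.22, 39.6 and 25.2 in CD45+, 42.4 and 25.9 in CD31+ and 54.1 and 52.2 in CD146+ libraries. The pBTSC libraries lay close together, all above the liver libraries. It rose by 2.73 ± 0.47 against CD45-/EpCAM+ cells (limma adjusted p = 0.00022) and by 3.02 ± 0.45 against CD45+ cells (limma adjusted p = 5.2e-05), and was not called against CD146+ cells at 1.32 (limma adjusted p = 0.106).

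MMP16, which like MMP14 can activate MMP2, spread widely in both tissues. MMP16 was at 476, 337, 859, 2193 and 1263 normalized counts in pBTSCs, 94.9, 88.3, 169.8 and 497 in CD45-/EpCAM+, 21.6 and 187 in CD45-/EpCAM-, 132, 97.5, 236, 496 and 322 in CD45+, 604 and 260.0 in CD31+ and 495 and 542 in CD146+ libraries. The 2 lowest pBTSC values overlapped the liver libraries from S16 on. Its log2 fold change was 2.33 ± 0.69 against CD45-/EpCAM+ (limma adjusted p = 0.0126) and 3.66 ± 0.86 against CD45-/EpCAM- cells (limma adjusted p = 0.00212). Without S5 the latter fell to 2.14 and was not called (limma adjusted p = 0.126). MMP15 was at 1944 to 3356 in pBTSCs and 621 to 3088 in liver, MMP24 was at 113 to 176 and 51.4 to 469.6, and MMP25, a leukocyte protease, at 32.4 to 140.5 and 0 to 103, with overlap in each case.

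MMP28, or epilysin, a protease of skin and other epithelia, was called higher in all 5 comparisons. MMP28 was at 2141, 1882, 1579.9, 1633 and 1403 normalized counts in pBTSCs, 241, 239, 129 and 678 in CD45-/EpCAM+, 136 and 116 in CD45-/EpCAM-, 478, 344, 192, 746 and 512 in CD45+, 704 and 517 in CD31+ and 736 and 522 in CD146+ libraries. No liver library reached the lowest pBTSC value, and S16 to S19 were the highest in liver. It rose by 2.68 ± 0.39 against CD45-/EpCAM+ cells (limma adjusted p = 4.2e-05), with 3.24 within label numbers up to 14 and 1.16 within numbers from 15. MMP28 also rose by 3.76 ± 0.49 against CD45-/EpCAM- cells (limma adjusted p = 1.2e-05) and by 1.5 ± 0.49 against CD31+ cells (limma adjusted p = 0.0418). Of the 7 libraries in that last comparison, leaving out any of 6 (S2, S7, S11, S15, S16 or S21) ended the call, with adjusted p by limma of 0.0585 to 0.36, as did fitting without the filter on low values (limma adjusted p = 0.053). The call against CD146+ cells was lost without S2, S7, S17 or S22 (limma adjusted p from 0.0536 to 0.358).

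MMP19, which cuts basement membrane proteins, went the other way. MMP19 was at 242, 224, 298, 365 and 544 normalized counts in pBTSCs, 1105, 1005, 901 and 2206 in CD45-/EpCAM+, 838 and 1198 in CD45-/EpCAM-, 727, 1175, 643, 2081 and 2986 in CD45+, 1879.8 and 3423 in CD31+ and 1717 and 3553 in CD146+ libraries. Every liver library was above every pBTSC library, and S21, S22 and S23 were the highest. MMP19 had a log2 fold change of -1.94 ± 0.43 against CD45-/EpCAM+ cells (limma adjusted p = 0.00171) and of -3.0 ± 0.53 against CD31+ cells (limma adjusted p = 0.00059). Within label numbers up to 14 the log2 difference from CD45-/EpCAM+ cells was -1.98, and from 15 it was -2.31. Against CD45-/EpCAM- cells MMP19 was not called without S5 (-1.92, limma adjusted p = 0.059) or without S14 (-1.40, limma adjusted p = 0.122).

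Of the 7 proteoglycan-cleaving ADAMTS genes, 5 were called higher against CD45-/EpCAM+ cells (14.8% of all genes) and 7 against CD45-/EpCAM- cells (20%). It was 3 against CD45+ cells (11%), 2 against CD31+ cells (6.73%) and 1 against CD146+ cells (14.5%). ADAMTS5, a main aggrecanase of cartilage, was the member called in all 5. ADAMTS5 was at 1281, 1205, 2237, 2537 and 1937 normalized counts in pBTSCs, 281, 479.5, 643 and 673 in CD45-/EpCAM+, 175 and 526 in CD45-/EpCAM-, 531, 595, 635, 699 and 576 in CD45+, 734 and 558 in CD31+ and 726 and 522 in CD146+ libraries. Its lowest pBTSC value was well above its highest liver value. The log2 fold change was 1.84 ± 0.31 against CD45-/EpCAM+ cells (limma adjusted p = 0.00017), and 1.77 and 1.72 within label numbers up to 14 and from 15.

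ADAMTS20, a versican-cleaving protease, was higher in every pBTSC library than in any liver library. ADAMTS20 was at 286, 221, 364, 157 and 91.4 normalized counts in pBTSCs, 15.4, 13.9, 0 and 23.4 in CD45-/EpCAM+, 8.57 and 8.83 in CD45-/EpCAM-, 17.8, 10.9, 10.8, 19.4 and 11.4 in CD45+, 28.6 and 16.4 in CD31+ and 32.6 and 50.4 in CD146+ libraries. The nearest values were 91.4 in S20 and 50.4 in S22, the latter about 1 read. It rose by 4.53 ± 0.71 against CD45-/EpCAM+ cells (limma adjusted p = 8.2e-05), where the 0 in the shallow S13 counted, and by 3.57 (limma adjusted p = 1.9e-05) without the 3 shallow libraries.

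ADAMTS8, a weakly active aggrecanase, had the difference from CD45-/EpCAM+ cells that changed most between label number ranges. ADAMTS8 was at 561, 670.2, 493, 229 and 122 normalized counts in pBTSCs, 45.6, 67.8, 0 and 109 in CD45-/EpCAM+, 15.6 and 19.2 in CD45-/EpCAM-, 101, 109, 51.3, 116 and 75.5 in CD45+, 129.7 and 58.8 in CD31+ and 144 and 106 in CD146+ libraries. S20 was inside the range of the liver values, which reached 144 in S17. The log2 fold change was 3.85 ± 0.97 against CD45-/EpCAM+ cells (limma adjusted p = 0.00475), and 2.46 (limma adjusted p = 0.00221) without the 3 shallow libraries. It was 5.28 within label numbers up to 14, where S13 stood at 0, and 0.61 within numbers from 15.

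ADAMTS4, an aggrecanase induced by inflammation, was called only against CD45-/EpCAM- cells. ADAMTS4 was at 5444, 7648, 3711, 4032 and 3851 normalized counts in pBTSCs, 5823, 3421, 3830.1 and 8089 in CD45-/EpCAM+, 905 and 1810.2 in CD45-/EpCAM-, 12147, 7845, 4203, 9381 and 6657 in CD45+, 9189 and 6063 in CD31+ and 9939 and 6783 in CD146+ libraries. S5 and S14 were the lowest 2 libraries and S3 the highest, so pBTSCs lay between them. Its log2 differences were 1.89 ± 0.41 against CD45-/EpCAM- cells (limma adjusted p = 0.00121) and -0.07 ± 0.33 against CD45-/EpCAM+ cells (limma adjusted p = 0.884). ADAMTS1 behaved alike, at 7402 to 15866 in pBTSCs and 2353 to 13390.1 in liver, with the same pair lowest. ADAMTS9 and ADAMTS15, at 3207 to 5978 and 1169 to 2038 in pBTSCs, were above their liver ranges of 691 to 3158 and 213 to 991, and their differences from CD45-/EpCAM+ cells were 0.23 and 0.97 within label numbers from 15, beside 1.63 and 2.07 up to 14.

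Of the procollagen N-proteinases, which trim the ends of fibrillar procollagens so that fibrils can form, ADAMTS2 was called higher in all 5 comparisons. ADAMTS2 was at 1739, 1629, 3476, 4844 and 3613 normalized counts in pBTSCs, 469, 756, 341 and 781 in CD45-/EpCAM+, 305 and 317 in CD45-/EpCAM-, 726, 824, 459.5, 720.1 and 348 in CD45+, 867 and 325 in CD31+ and 787 and 479 in CD146+ libraries. The lowest pBTSC library was well above the highest liver library. The log2 fold change was 2.33 ± 0.38 against CD45-/EpCAM+ cells (limma adjusted p = 0.00012) and 3.17 ± 0.47 against CD45-/EpCAM- cells (limma adjusted p = 4.7e-05). ADAMTS3 was at 167 to 315 in pBTSCs and 139 to 469.6 in liver, and ADAMTS14 at 87.9 to 145 and 0 to 95.1. ADAMTS3 was called in none of the 5 comparisons.

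ADAMTS7 and ADAMTS12, which cut cartilage oligomeric matrix protein, mostly overlapped. ADAMTS7 was at 934 to 1219.8 in pBTSCs and 362 to 2787 in liver and was not called. ADAMTS12 was at 1168 to 3909 and 345 to 1931, and was called only against CD45-/EpCAM- cells, by 2.01 ± 0.42 (limma adjusted p = 0.0009).

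ADAMTS13 cuts von Willebrand factor and is made in the liver, mainly by stellate cells. ADAMTS13 was at 49.5, 17.3, 22.9, 25.1 and 27.3 normalized counts in pBTSCs, 186, 287, 539.8 and 337 in CD45-/EpCAM+, 71.6 and 196 in CD45-/EpCAM-, 215, 244, 324, 341 and 387 in CD45+, 389 and 329.5 in CD31+ and 328 and 104 in CD146+ libraries. The highest pBTSC value was below the lowest liver value, which was in S5. Its log2 fold change was -3.51 ± 0.40 against CD45-/EpCAM+ cells (limma adjusted p = 3.2e-06) and -3.70 ± 0.50 against CD31+ cells (limma adjusted p = 4.2e-05), and it was -3.46 within label numbers up to 14 and -3.64 from 15. Against CD45-/EpCAM- cells the call was lost without S14 (-1.39, limma adjusted p = 0.0763). VWF, its substrate, was called higher in pBTSCs in all 5 comparisons. ADAMTS13 overlaps CACFD1 and SLC2A6. CACFD1 was at 252 to 414 normalized counts in pBTSCs and at 581 to 959 in liver, and SLC2A6 at 22.3 to 63.4 and 0 to 117. Reads of ADAMTS13 are thus uncertain where counting did not use strand, as are those of ADAMTS6 beside CENPK and of ADAMTS7 beside TBC1D2B.

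**Figure D5:**
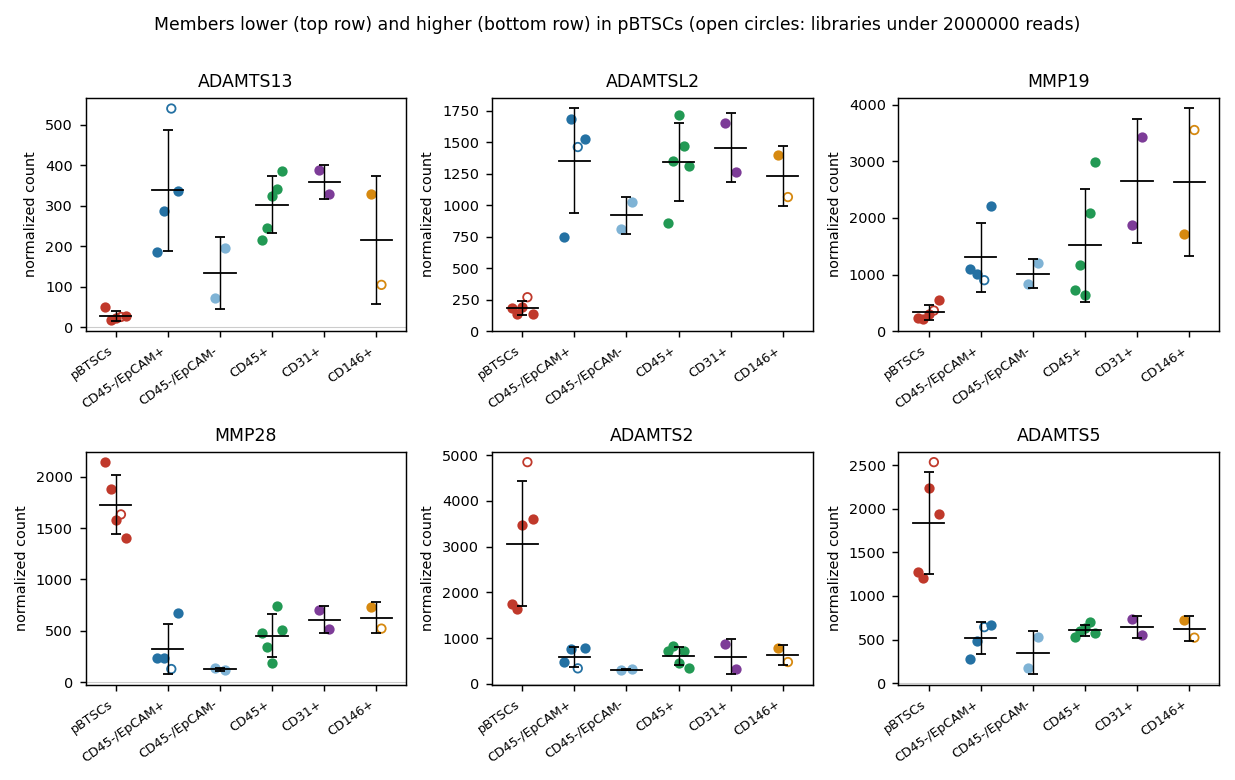
Normalized counts of members called lower or higher in pBTSCs in every comparison, by library (points; open circles are the 3 libraries under 2000000 reads), with group means (lines) and SD (bars). MMP19, ADAMTS13 and ADAMTSL2 have all pBTSC points below all liver points, and MMP28, ADAMTS2 and ADAMTS5 have them above.

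Of the 6 other ADAMTS genes, 5 were called higher against CD45-/EpCAM+ cells (14.8% of all genes) and 6 against CD45-/EpCAM- cells (20%). ADAMTS17, mutated in a syndrome of short stature and lens dislocation, was called in all 5 comparisons. ADAMTS17 was at 248, 294, 504, 589.6 and 426 normalized counts in pBTSCs, 45.9, 50.7, 77.03 and 172 in CD45-/EpCAM+, 24.3 and 43.2 in CD45-/EpCAM-, 58.3, 47.2, 94.6, 168 and 54.9 in CD45+, 160.5 and 42.7 in CD31+ and 184 and 52.1 in CD146+ libraries. In liver, S16 to S19 stood apart at 160.5 to 184, still below the lowest pBTSC library. Its log2 fold change was 2.38 ± 0.52 against CD45-/EpCAM+ cells (limma adjusted p = 0.00159).

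ADAMTS16, described in kidney and gonads, had a smaller difference. ADAMTS16 was at 198, 235, 332, 653 and 267 normalized counts in pBTSCs, 104, 98.1, 154 and 117 in CD45-/EpCAM+, 14.3 and 48.5 in CD45-/EpCAM-, 148, 119, 112, 100.1 and 132 in CD45+, 139 and 98.4 in CD31+ and 119 and 104 in CD146+ libraries. The gap between the highest liver value, 154 in the shallow S13, and the lowest pBTSC value was small, and S5 and S14 were again lowest. It rose by 1.39 ± 0.35 against CD45-/EpCAM+ (limma adjusted p = 0.00479) and by 3.48 ± 0.44 against CD45-/EpCAM- cells (limma adjusted p = 9.1e-06).

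ADAMTS18 and ADAMTS19 were low in liver. ADAMTS18 was at 55.1, 57.3, 80.8, 176 and 25.9 normalized counts in pBTSCs, 3.36, 1.69, 0 and 9.88 in CD45-/EpCAM+, 2.86 and 0.557 in CD45-/EpCAM-, 3.61, 2.91, 2.17, 10.8 and 17.6 in CD45+, 13.97 and 15.3 in CD31+ and 12.01 and 52.2 in CD146+ libraries. Only the shallow S22, at about 1 read, came within the pBTSC range. ADAMTS18 rose by 4.3 ± 0.74 against CD45-/EpCAM+ cells (limma adjusted p = 0.00021), and by 3.36 (limma adjusted p = 0.00121) without the 3 shallow libraries.

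ADAMTS19 was at 17.9, 20.1, 114, 138 and 54.6 normalized counts in pBTSCs, 6.73, 2.82, 0 and 1.41 in CD45-/EpCAM+, 1.43 and 2.79 in CD45-/EpCAM-, 16.2, 8.73, 12.3, 3.600 and 4.06 in CD45+, 2.69 and 3.81 in CD31+ and 3.34 and 0 in CD146+ libraries. ADAMTS19, a gene needed for heart valve structure, thus varied in pBTSCs from 17.9 in S2 to 138 in the shallow S15, and S3 came near its lowest value. Its log2 fold change was 4.14 ± 0.73 against CD45-/EpCAM+ cells (limma adjusted p = 0.00027), and 3.27 (limma adjusted p = 0.00145) without the 3 shallow libraries. ADAMTS6 was at 1017 to 1369 in pBTSCs and 251 to 1072 in liver, and ADAMTS10, which acts on fibrillin, at 954 to 2046 and 420.4 to 1159. Both were called higher against CD45-/EpCAM- cells, and ADAMTS6 also against CD45-/EpCAM+ cells.

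The ADAMTS-like proteins were split in direction. ADAMTSL2, which binds fibrillin and a latent TGF-beta binding protein, was lower in pBTSCs in all 5 comparisons. ADAMTSL2 was at 185, 135, 196, 270.0 and 136 normalized counts in pBTSCs, 747, 1686, 1463 and 1524 in CD45-/EpCAM+, 814 and 1025 in CD45-/EpCAM-, 863, 1354, 1717, 1471 and 1315 in CD45+, 1650.5 and 1265 in CD31+ and 1401 and 1066 in CD146+ libraries. No pBTSC library came near the lowest liver value, in S4. The log2 fold change was -2.85 ± 0.26 against CD45-/EpCAM+ cells (limma adjusted p = 2.5e-07), and -2.85 and -2.98 within label numbers up to 14 and from 15.

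ADAMTSL3 was higher instead. ADAMTSL3 was at 497, 703, 756, 1369 and 879 normalized counts in pBTSCs, 46.8, 104, 157 and 147 in CD45-/EpCAM+, 64.7 and 82.6 in CD45-/EpCAM-, 91.6, 98.4, 75.2, 154 and 77.8 in CD45+, 172 and 87.2 in CD31+ and 135 and 0 in CD146+ libraries. All pBTSC values were above all liver values. It rose by 2.94 ± 0.89 against CD45-/EpCAM+ cells (limma adjusted p = 0.0147), and the estimate against CD146+ cells was 2.35 (limma adjusted p = 0.0122) without the 3 shallow libraries in place of 6.09 (limma adjusted p = 0.00065) with them. The call against CD45-/EpCAM+ cells was lost without S4 (2.56, limma adjusted p = 0.0508) and with 0.1 in place of 1 added before the logarithm (2.95, limma adjusted p = 0.0768).

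ADAMTSL5, a fibrillin-binding protein, also lay above all liver libraries. ADAMTSL5 was at 337, 480.0, 509, 553 and 458 normalized counts in pBTSCs, 124, 129, 51.4 and 212 in CD45-/EpCAM+, 44.3 and 30.7 in CD45-/EpCAM-, 234, 221, 62.1, 207 and 255 in CD45+, 198 and 249 in CD31+ and 222 and 261 in CD146+ libraries. It rose by 1.99 ± 0.40 against CD45-/EpCAM+ (limma adjusted p = 0.00083) and by 3.61 ± 0.50 against CD45-/EpCAM- cells (limma adjusted p = 2.3e-05).

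ADAMTSL1 was called only against CD45-/EpCAM- cells. ADAMTSL1 was at 1176, 983, 1845, 1392 and 1599 normalized counts in pBTSCs, 532, 664, 642 and 1099.8 in CD45-/EpCAM+, 122 and 257 in CD45-/EpCAM-, 962, 991, 470.2, 1269 and 2218 in CD45+, 1291 and 2093 in CD31+ and 1408 and 2449.5 in CD146+ libraries. Values in S21, S22 and S23 were higher than in any pBTSC library, and S5 and S14 were lowest. Its log2 differences were 2.94 ± 0.45 from CD45-/EpCAM- cells (limma adjusted p = 6.2e-05) and 0.95 ± 0.36 from CD45-/EpCAM+ cells (limma adjusted p = 0.0472). ADAMTSL4 was at 457 to 1408 in pBTSCs and 398 to 1795 in liver and was called in none.

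Between the liver groups few members differed. Against CD45-/EpCAM- cells, CD45-/EpCAM+ cells had 4 members higher (2.03% of all genes) and 0 lower (0.770% of all genes), with 18 members at an unadjusted p under 0.05: ADAMTS16 by 2.09 ± 0.45 (limma adjusted p = 0.0259), ADAMTSL1 by 1.99 ± 0.47 (limma adjusted p = 0.0345), ADAMTS4 by 1.96 ± 0.42 (limma adjusted p = 0.0259) and ADAMTS9 by 1.15 ± 0.29 (limma adjusted p = 0.041). These 4 calls became 0 without S5, 0 without S19 and 8 without S14, where 0%, 0.161% and 9.5% of all genes were called. Between CD45+ and CD45-/EpCAM+ cells 0 members were called by limma, where 0% of all genes were, with 3 members at an unadjusted p under 0.05. The counts at an unadjusted p in this paragraph stand without the share of all genes under it, so they cannot be read as particular to the members. Between the endothelial sorts together (CD31+ and CD146+) and CD45-/EpCAM+ cells it was also 0 members and 0% of all genes, with 13 at an unadjusted p under 0.05, but 4 were called without S19, where 2.57% of all genes were, and 5 without S17, where 7.02% were.

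The label number separated some members in liver that the sort did not. In the 7 liver libraries numbered from 15, MMP15, MMP16, MMP19, MMP24, MMP28, ADAMTS12, ADAMTS18 and ADAMTSL1 were all above their levels in the 8 numbered up to 14, which are 8 of 44 members (7.06% of all genes), and 0 members were below (7.97% of all genes). MMP16 was at 21.6 to 236 normalized counts in the lower numbers and at 260.0 to 604 in the higher ones. MMP19 was at 643 to 1198 in the former and at 1717 to 3553 in the latter, and MMP28 at 116 to 478 and at 512 to 746. The sorts are spread unevenly over these numbers: both CD45-/EpCAM- libraries are numbered up to 14 and all CD31+ and CD146+ libraries from 15, so number and sort cannot be told apart for these 3 groups. The labels do not say what the numbers stand for. The calls were made with the same libraries, so their values within number ranges are a description and no separate evidence. Of the 26 members called against CD45-/EpCAM+ cells, 26 had the same direction within both number ranges, where the higher range held 2 pBTSC libraries and S19 alone, and 21 differed by more than 1 on the log2 scale in both, the exceptions being TIMP4, ADAMTS6, ADAMTS8, ADAMTS9 and ADAMTS15. Against CD45+ cells, with 2 libraries of each group in the higher range, it was 23 of 23 and 20, the exceptions being TIMP3, ADAMTS15 and ADAMTS16.

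Other genes of the same pathway did not share a single direction. Of 21 tested activators and further matrix proteases, 9 were called higher in pBTSCs than in CD45-/EpCAM+ cells (ADAM8, ADAM10, ADAM15, ADAM19, HTRA3, PAPPA, PCSK5, PLAT and TLL1) and 5 lower (CTSB, CTSL, CTSS, FURIN and PLG), with a median log2 fold change of 0.26 beside 0.08 over all genes, and the shares called over all genes were 14.8 and 10.3%. The 5 lower ones are lysosomal cathepsins, the proprotein convertase furin and plasminogen, which hepatocytes make. Of 10 other inhibitors and regulators, PCOLCE, an enhancer of procollagen processing, was higher and A2M, a broad protease inhibitor of plasma, was lower. Of 8 tested substrates and partners, 5 were higher (ACAN, VCAN, FBN1, FBN2 and VWF) and FN1, fibronectin, was lower. Against CD45-/EpCAM- cells the counts were 8 higher and 5 lower of 21, 4 and 2 of 10, and 6 and 0 of 8, beside 20 and 16.6% over all genes. HTRA3, TLL1, PCOLCE, VCAN and VWF were called higher in all 5 comparisons, and the same 5 proteases and A2M were lower in all 5.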

How the data were processed

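Poly(A) RNA of 20 pig cell preparations was sequenced from TruSeq Stranded mRNA libraries. Per the deposited file, the authors scaled gene counts between libraries, which gives a signal of 0 or more (normalized counts) for each of 25764 genes. The submitters' processing notes name STAR, Salmon and DESeq2, and versions, genome build, annotation and use of strand are not given in the sources used here. The values are not scaled by gene length, so levels were not compared between genes. Rounding to whole reads, within 0.05 reads, held for 56.0 to 82.9% of low values, so no count test was run. The value of 1 read in each library gave its depth, and 3 reads were taken as the floor, for counting error only.

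From these values log2(normalized count + 1) was computed. Genes with 10 or more normalized counts in at least 2 libraries (15576 genes) were fitted with limma 3.58.1 in R 4.3.3, with a mean for each of 6 groups and a trended empirical Bayes variance, and p-values were adjusted by Benjamini-Hochberg. Calls needed an adjusted p below 0.05 with a log2 fold change beyond 1 in either direction. Steps were tested on simulated data. Tables were made with Python 3.11.15.

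Values in every library are given for TIMP1 to TIMP4, MMP2, MMP9 and MMP14, for up to 10 called members with the largest change against each CD45- group, for up to 3 in each other comparison, and for members called in all 5. The members and lists were chosen with earlier results of these data known. Alternatives covered the added count, the filter, the scaling, library weights, label number as a covariate, only the groups compared, and leaving out libraries. Leaving out S5 together with the shallow libraries, and runs of label numbers as a block, were chosen after seeing the data. Gene neighbours came from the RefSeq gene table of Sscrofa11.1, in which all 46 members were found. Sequences of the members were not used here.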

Additional observations from a re-analysis of the deposited data

Results flagged for a closer look

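In groups of 4 or 5 libraries, 8 of 132 groups of member values held a library far from the rest by Dixon's test, and chance gives about 1 in 20. Of these 8, 2 were in a shallow library. ADAMTS20 was at 0 in S13 (CD45-/EpCAM+), a library of 801000 reads in which 3 reads stand for 77.1 normalized counts, and at 13.9 to 23.4 in the other 3. MMP11 was at 540.2 in S15 (pBTSC), also shallow, and at 828 to 957 in the other 4. ADAMTS6 was at 1369 in S11 (pBTSC) and at 1017 to 1105 in the rest. In S4 (CD45-/EpCAM+), ADAMTSL4 was high at 1795, where the rest of the group was at 579 to 685, and TIMP2 was low at 1492, where the rest was at 2663 to 2879. MMP25 was at 77.25 in S9 (CD45-/EpCAM+) and at 24.9 to 28.0 in the rest. Among CD45+ libraries, ADAMTSL5 was at 62.11 in S12 and at 207 to 255 in the rest, and MMP9 was at 3.156 in S18 and at 24.5 to 49.9 in the rest.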

How the results depend on the processing

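The labels carry no replicate number that the groups share, so the reported fits hold no block. As an alternative chosen after seeing the data, label numbers were split into 5 runs, each starting at a pBTSC library, and fitted as a block. Of 15 liver libraries, 13 had their best correlated deviation from the group mean, among libraries of other groups, in their own run, but only 2 of 5 pBTSC libraries did, so it is a hint and not a known pairing. With this replicate block the calls were 28, 32, 25, 22 and 25 against CD45-/EpCAM+, CD45-/EpCAM-, CD45+, CD31+ and CD146+ cells in place of 26, 32, 23, 16 and 17, and 4, 0 and 0 between liver groups, and MMP9 was also called against CD45-/EpCAM+ cells (2.02, limma adjusted p = 0.00667). For the comparisons of pBTSCs with CD45-/EpCAM+, CD45-/EpCAM- and CD45+ cells, every alternative gave a count of called members within 1.5 times that reported. Against CD31+ cells the 16 calls ranged from 6 to 15 when 1 library was left out, with 6 without S21 and 8 without S16. Against CD146+ cells the 17 calls ranged from 8 (without S22) to 19 (without S17), and were 8 with library weights, 11 without the 3 shallow libraries and 10 when S5 was left out too. Between CD45-/EpCAM+ and CD45-/EpCAM- cells the 4 calls ranged from 0 to 8 on leaving out 1 library, and were 8 with libraries rescaled to the same total, 7 without the 3 shallow libraries, and 0 with library weights, 0 in a fit of the groups compared alone and 0 without S5 and the shallow libraries. Between the endothelial sorts and CD45-/EpCAM+ cells the 0 calls became 4 without S19 and 5 without S17, and stayed at 0 on leaving out any other library. MMP9 changed sign against CD45-/EpCAM- cells: its log2 difference of -1.04 ranged from -2.84 to 0.76 on leaving out 1 library, with 0.76 without S5, and was 1.03 without S5 and the shallow libraries. Where fewer libraries or groups were fitted, the loss of calls goes with fewer samples, and for weights and scaling the cause was not tested. The counts in this paragraph stand without the shares over all genes in the same settings. Their changes therefore cannot be read as particular to the members. Leaving 1 library in a group assumes that it varies like the other groups. Of 1890 alternatives over 95 named values, 1783 kept their direction and side of the threshold, 99 lost the call, 6 gained it and 2 changed sign. Depth limits members at or under 3 reads. Among them are MMP12 in 14 of 15 liver libraries, MMP13 in every CD45-/EpCAM+ library, and MMP20 and MMP27 everywhere except MMP27 in S5. The same holds for all members under 156 normalized counts in S22, under 77.1 in S13 and under 37.7 in S15.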
